A study of Mus musculus with 12 samples.

Results

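The 5 genes described here are Fcgr1, Fcgr2b, Fcgr3 and Fcgr4, the mouse receptors for the Fc part of immunoglobulin G (IgG), and Fcer1g, the common gamma chain. They were chosen by name, not by a measured value. They are 5 of the 25700 genes listed in the count table, and all 5 were among the 13844 genes that passed a filter on low counts and were tested.

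The libraries were bulk RNA sequencing of non-parenchymal mouse liver cells, from which macrophages were enriched by magnetic capture of F4/80 after collagenase digestion. No further sorting is described, and livers below stands for these enriched cells. There were 4 groups of 3 mice: Spta wt/wt mice (WT) given saline, Spta sph/sph mice (sph/sph) given saline, and mice of each genotype given 20 mg/kg of an agonistic anti-CD40 antibody into the peritoneum, with a stated time of 30 h. Homozygous sph/sph mice lack a working erythrocyte alpha spectrin, have fragile, spherical red cells and are chronically anaemic. The labels give male mice of 8 to 10 weeks for all 4 groups, and the design text counts 3 animals per group. The table's columns call the control genotype heterozygous where every label calls it wild type, so heterozygous controls cannot be told apart from wild type here. Libraries are named A, B and C within a group in column order, and equal letters B and C do not pair animals. The column names of the WT and sph/sph A libraries of a treatment share an identification number, whose meaning is not given.

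Fc receptors let a phagocyte read antibody. Fcgr1, Fcgr3 and Fcgr4 are activating receptors: each sits in the membrane with a dimer of Fcer1g, whose immunoreceptor tyrosine-based activation motifs (ITAMs) are phosphorylated by Src-family kinases and recruit the kinase Syk, which leads to phagocytosis, the oxidative burst and cytokine release. Fcgr2b needs no partner chain. It carries an inhibitory motif (ITIM) that recruits the lipid phosphatase Inpp5d (SHIP1) and dampens the activating signal. In the liver, Kupffer cells, the resident macrophages, carry activating and inhibitory receptors and clear antibody-coated particles, while sinusoidal endothelial cells carry Fcgr2b in abundance and take up small immune complexes. B cells carry Fcgr2b as their Fc gamma receptor, and natural killer (NK) cells, neutrophils, mast cells and basophils also use the gamma chain.

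On chromosome 1 of build GRCm38 lie Fcgr2b (ENSMUSG00000026656) at chr1:170958617-170976547 on the minus strand, Fcgr4 (ENSMUSG00000059089) at chr1:171018920-171029761 on the plus strand, Fcgr3 (ENSMUSG00000059498) at chr1:171051174-171064935 on the minus strand, and Fcer1g (ENSMUSG00000058715) at chr1:171229572-171234365 on the minus strand. Fcgr1 (ENSMUSG00000015947) lies apart at chr3:96282909-96293969 on the minus strand. The sequences just upstream of the starts of Fcgr1 and Fcgr4 are shown because these genes, on separate chromosomes, had the most similar profiles of all pairs among the 5. That of Fcer1g is shown because it encodes the chain that both receptors need. They are the parts of RefSeq's 250-base upstream windows (GRCm38.p6) that hold no annotated exon, at chr3:96293970-96294219, chr1:171018676-171018919 and chr1:171234366-171234599, written 5′ to 3′ on the strand of each gene. Capitals mark matches to the motifs named after them.
Fcgr1: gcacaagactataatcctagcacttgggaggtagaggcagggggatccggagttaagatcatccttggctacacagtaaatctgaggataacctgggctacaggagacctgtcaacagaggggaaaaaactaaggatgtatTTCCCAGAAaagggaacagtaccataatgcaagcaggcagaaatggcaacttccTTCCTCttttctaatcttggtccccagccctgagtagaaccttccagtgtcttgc
Fcgr4: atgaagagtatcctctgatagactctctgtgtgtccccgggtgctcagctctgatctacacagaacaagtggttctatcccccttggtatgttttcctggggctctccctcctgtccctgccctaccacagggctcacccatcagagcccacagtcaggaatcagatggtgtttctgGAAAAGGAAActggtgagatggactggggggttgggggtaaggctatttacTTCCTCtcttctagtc
Fcer1g: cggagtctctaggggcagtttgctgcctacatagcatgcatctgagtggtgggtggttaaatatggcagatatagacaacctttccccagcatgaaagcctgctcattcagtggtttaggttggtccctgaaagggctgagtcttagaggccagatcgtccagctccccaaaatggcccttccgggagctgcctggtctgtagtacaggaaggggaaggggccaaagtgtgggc

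Short motifs were searched on both strands of these 3 windows: GAS (TTCNNNGAA, the interferon gamma-activated site), the PU.1 box (GAGGAA), an interferon regulatory factor (IRF) element and AP-1 (TGANTCA). The Fcgr1 window held the GAS match TTCCCAGAA at 109 to 101 bases before the start and a PU.1 box, TTCCTC as read on the gene's strand, at 55 to 50 bases. The Fcgr4 window held the IRF match GAAAAGGAAA at 73 to 64 bases and a PU.1 box at 22 to 17 bases. The Fcer1g window held no match. Distances are counted from RefSeq's start, which for Fcgr4 and Fcer1g lies past the last base shown, inside the annotated first exon. Of 32817 RefSeq upstream windows of this length, 7.0% held the GAS letters, 23.3% the PU.1 box, 3.0% the IRF letters and 6.8% the AP-1 letters. These are matches of letters and not measured binding.

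Library totals ranged from 14991250 to 18984067 counts. The A library of every group had 0 counts over 4 Y-linked genes, whereas the B and C libraries had 2436 to 4055, although all mice are labelled male; results are therefore also given within the A libraries and within B and C. The label of liver macrophages was checked against 10 Kupffer cell genes. Their summed level was 35000 to 40400 CPM (counts scaled to a common library size by edgeR's TMM method) in WT saline libraries, 37800 to 53200 in sph/sph saline, 829 to 1420 in WT anti-CD40 and 24100 to 41400 in sph/sph anti-CD40. Under anti-CD40 in WT mice, 9 of the 10 fell; Clec4f, a Kupffer cell lectin, went from 10000 to 4.29 CPM, Vsig4 from 3210 to 2.60 CPM, and Adgre1, which encodes the F4/80 antigen used for capture, from 1780 to 88 CPM (group means, n = 3). The exception was Marco, a scavenger receptor, which differed by genotype. WT livers held 654 CPM under saline and 487 under anti-CD40, sph/sph livers 11300 and 14800 CPM. The mean sums of the 10 genes in sph/sph, Marco included, were 45300 CPM under saline and 31900 under anti-CD40. In sph/sph, Clec4f stood at 7700 CPM under saline and 2100 under anti-CD40, and Vsig4 at 3100 and 1130 CPM. None of the 10 was called for anti-CD40 in sph/sph. In these bulk samples fewer cells of a type and less RNA per cell cannot be told apart. The 9 erythroid genes were also higher in sph/sph than in WT livers in each treatment (9 of 9 called in each), summing to 4890 to 8210 CPM in sph/sph saline libraries and 64.1 to 287 CPM in WT saline.

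Under saline, transcripts of all 5 genes were abundant in both genotypes. Per kilobase of exon (RPKM, CPM divided by the union exon length), Fcer1g stood highest in WT saline livers at 773 ± 64.0 (SD, n = 3), followed by Fcgr3 at 402 ± 43.7 and Fcgr4 at 365 ± 54.4. Fcgr1, the high-affinity receptor, was lower at 90.8 ± 15.3 RPKM and Fcgr2b lowest at 58.4 ± 30.2 RPKM. The libraries of Fcgr3 (355 to 441 RPKM) and Fcgr4 (333 to 428 RPKM) overlapped, as did those of Fcgr1 and Fcgr2b (76.8 to 107 and 26.3 to 86.1 RPKM). These neighbours in the order were not separated by this measure. The order depends on the length used. The principal transcript of Fcgr2b is 3544 bases against 5790 for all exons, and that of Fcgr3 1347 against 1736. For Fcgr1 and Fcgr4 both lengths are equal. By principal transcript length the mean of Fcgr2b would not be lowest, and the Fcgr3 libraries would lie above those of Fcgr4.

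Genotype alone left the 5 genes within the spread of the libraries. None was called between sph/sph and WT under saline by edgeR's quasi-likelihood test (adjusted p under 0.05; 2.04% of all tested genes were called, 1.6% higher and 0.433% lower), none had an unadjusted p under 0.05, and DESeq2 and limma-voom also called none. No member had groups without overlap, against 31.0% of all tested genes (16.7% higher and 14.3% lower). The fitted log2 folds of sph/sph over WT were −0.19 ± 0.67 (SE) for Fcgr1, −0.19 ± 0.41 for Fcgr3, −0.15 ± 0.67 for Fcgr4, −0.42 ± 0.75 for Fcgr2b and 0.05 ± 0.39 for Fcer1g, with edgeR adjusted p from 0.868 to 0.972.

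**Figure D1:**
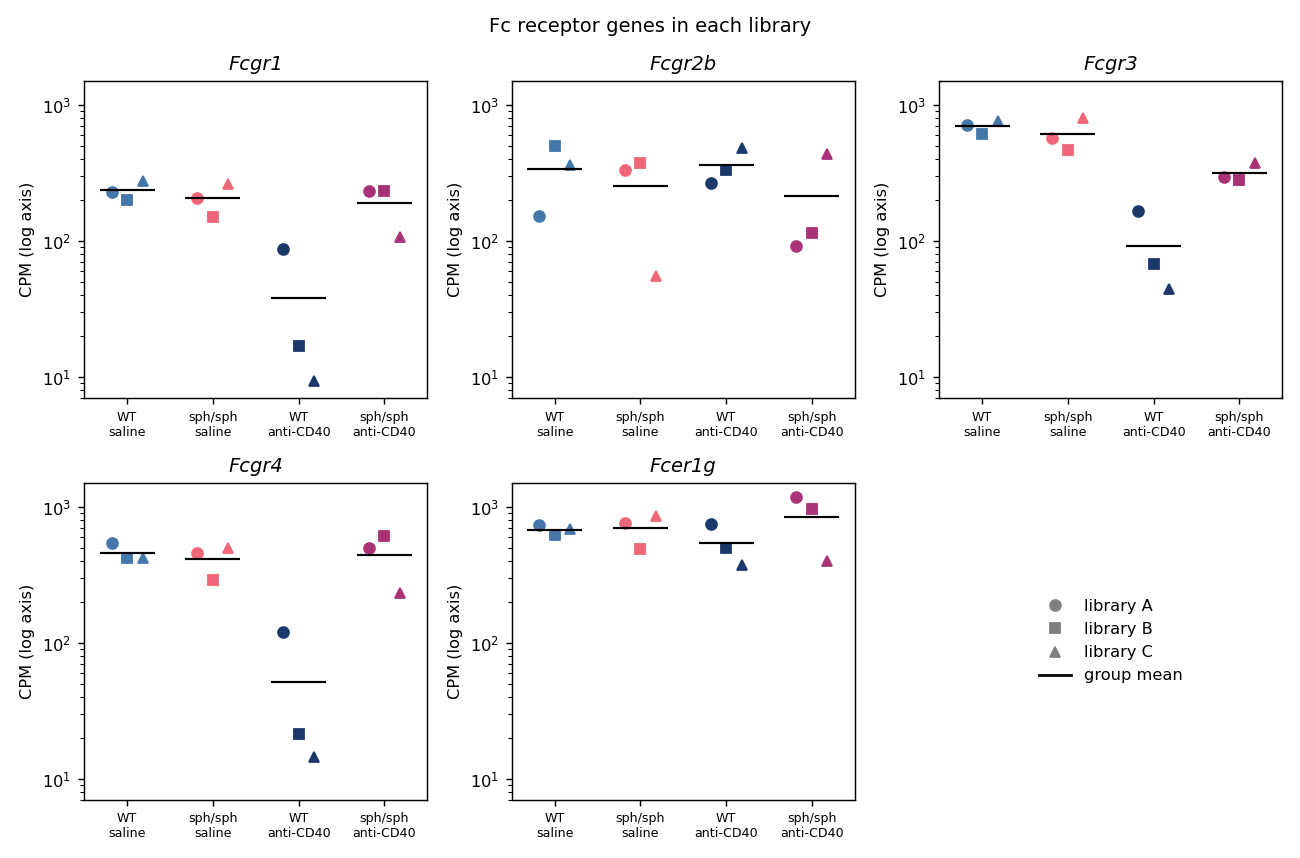
Levels of the 5 Fc receptor genes in each of the 12 libraries (CPM, log axis), by group; circles, squares and triangles are libraries A, B and C, and bars are group means. Fcgr1, Fcgr3 and Fcgr4 are lowest in the 3 WT anti-CD40 libraries, with library A above B and C, while the groups of Fcgr2b and Fcer1g overlap.

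The 3 activating receptors fell in WT livers after anti-CD40, and were higher in sph/sph than in WT livers under anti-CD40. Fcgr4, a receptor for mouse IgG2 subclasses, had the largest fold in each comparison. Its level was 537.2, 419.8 and 417.8 CPM in WT saline libraries A, B and C, and 458.9, 286.6 and 493.0 CPM in sph/sph saline. It was 119.0, 21.36 and 14.48 CPM in WT anti-CD40 and 497.5, 605.6 and 231.9 CPM in sph/sph anti-CD40. Every WT anti-CD40 library lay below all 9 others, and library A was the highest of these 3. The level was 8.89-fold lower under anti-CD40 in WT (log2 −3.15 ± 0.73, edgeR adjusted p = 0.00756). Under anti-CD40 sph/sph livers held 8.63 times the WT level (log2 3.11 ± 0.73, edgeR adjusted p = 0.0164). In sph/sph mice the saline and anti-CD40 libraries overlapped (log2 0.11 ± 0.67, edgeR adjusted p = 0.942). By group mean the order was WT saline (458.2), sph/sph anti-CD40 (445.0), sph/sph saline (412.8) and WT anti-CD40 (51.60 CPM), and only the last step had no overlap.

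Fcgr3, which binds IgG in immune complexes with low affinity and is the closest relative of Fcgr2b, gave the smallest errors of the 3. It stood at 709.3, 615.7 and 766.0 CPM in WT saline and at 165.9, 67.23 and 44.61 CPM in WT anti-CD40. The WT fall was 7.53-fold (log2 −2.91 ± 0.44, edgeR adjusted p = 0.000787). In sph/sph mice it stood at 567.4, 465.7 and 798.5 CPM under saline and at 295.7, 282.5 and 375.0 CPM under anti-CD40. Fcgr3 was the only member whose sph/sph groups did not overlap, a separation shared by 21.7% of tested genes, 11.6% lower and 10.1% higher. The difference of log2 −0.94 ± 0.41 did not pass the test (edgeR adjusted p = 0.227, unadjusted p = 0.0447). Under anti-CD40 sph/sph libraries held 3.43 times the WT level (log2 1.78 ± 0.42, edgeR adjusted p = 0.017). Its order by group mean ran from WT saline (697.0) and sph/sph saline (610.5), which overlapped, through sph/sph anti-CD40 (317.7) to WT anti-CD40 (92.58 CPM), the last 2 steps without overlap.

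Fcgr1, the high-affinity receptor for monomeric IgG2, had the same order of group means as Fcgr3, with only the last step free of overlap. Its libraries read 229.7, 198.7 and 277.1 CPM in WT saline, 206.6, 149.1 and 262.3 in sph/sph saline, 87.24, 16.90 and 9.355 in WT anti-CD40, and 231.6, 234.6 and 107.1 CPM in sph/sph anti-CD40. The WT anti-CD40 group was again below all other libraries, and its own spread, 9.33-fold from library C to library A, was the widest of any group and member. The fall in WT was 6.23-fold (log2 −2.64 ± 0.71, edgeR adjusted p = 0.0153). The excess of sph/sph over WT under anti-CD40 was 5.06-fold (log2 2.34 ± 0.70, edgeR adjusted p = 0.045). The sph/sph groups overlapped (log2 −0.11 ± 0.67, edgeR adjusted p = 0.942).

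Thus 3 of the 5 members were called, all lower, for anti-CD40 in WT mice, against 39.2% of all tested genes called (19.7% lower and 19.4% higher). The same 3 had no overlap, against 57.3% of all tested genes (28.0% lower and 29.3% higher). For sph/sph over WT under anti-CD40, 3 of 5 were called, all higher, against 17.7% of tested genes (11.5% higher and 6.19% lower), and the same 3 had no overlap, against 28.4% (16.7% higher and 11.7% lower). None of the 5 was called for anti-CD40 in sph/sph mice, where edgeR called 0.78% of tested genes (0.578% higher and 0.202% lower). There 1 member had an unadjusted p under 0.05, and DESeq2 and limma-voom called none. The low background rested on 1 library: edgeR called 108 genes in the main fit but 2372 without sph/sph anti-CD40 library C, and DESeq2 called 1372. No member was called in these fits either. The difference between the genotypes' responses, the interaction, called 4.3% of tested genes (3.18% above and 1.12% below 0) and none of the 5 members, although 3 members had an unadjusted p under 0.05 and DESeq2 called 2 of them and limma-voom none. Its log2 values were 3.26 ± 0.98 for Fcgr4 (edgeR adjusted p = 0.0967), 1.97 ± 0.58 for Fcgr3 (0.0927) and 2.53 ± 0.96 for Fcgr1 (0.184). Fcgr4 was called for the interaction with a term for sex as read from Y-linked counts (edgeR adjusted p = 0.0481) and with the number shared by the A libraries as a block (0.039). A different response of the genotypes was thus not called by the main test. It was called for Fcgr4, Fcgr3 or Fcgr1 in some of the other fits, most often for Fcgr4.

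Kupffer cell sums, given above, were likewise lowest in the 3 WT anti-CD40 libraries. None of the 10 genes was at 0 counts in any group. For anti-CD40 in sph/sph their median log2 fold was −0.94, with none called. Fcgr3 was also at −0.94 there, while Fcgr4 was at 0.11 and Fcgr1 at −0.11, none of them called. The 12 monocyte genes summed to 346 to 621 CPM in WT saline, 174 to 419 in sph/sph saline, 1030 to 3030 in WT anti-CD40 and 527 to 2170 CPM in sph/sph anti-CD40. In WT anti-CD40, library A was highest in all 3 receptors and in the monocyte (3030, 2040 and 1030 CPM for A, B and C), Kupffer cell (1420, 829 and 1230 CPM) and dendritic cell sums (1450, 489 and 521 CPM). Library A was also highest in the erythroid (183, 44.2 and 30.1 CPM) and hepatocyte sums (1460, 1100 and 509 CPM). It was lowest in the NK and T cell (305, 2610 and 998 CPM) and B cell sums (150, 526 and 698 CPM). The endothelial (3610, 4610 and 8360 CPM) and mast cell and basophil sums (137, 366 and 610 CPM) were also lowest in A. So was the eosinophil sum (2.13, 3.52 and 3.05 CPM). In the neutrophil sum A lay between B and C (563, 654 and 211 CPM). Library B lay above C in all 3 receptors but below C in the Kupffer cell sum. The part of these cell types in the differences was not tested.

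Single libraries decided some of these calls. Without WT anti-CD40 library B, Fcgr1 was no longer called in the WT response (edgeR adjusted p = 0.0517), and none of the 3 was called for sph/sph over WT under anti-CD40 (adjusted p = 0.065 for Fcgr3, 0.0561 for Fcgr4 and 0.13 for Fcgr1). The genotype call of Fcgr1 was held in 2 of 12 such fits only; it was also lost when any saline library, WT anti-CD40 library C, or sph/sph anti-CD40 library A or B was left out. Without WT anti-CD40 library A, the highest of its group, the interaction was called for Fcgr1 (adjusted p = 0.00298), Fcgr3 (0.00298) and Fcgr4 (0.0016). The folds kept their direction but differed in size between libraries with and without Y-linked counts. Fcgr4 was 4.52-fold lower under anti-CD40 in the WT A libraries and 23.4-fold lower in B and C, and under anti-CD40 sph/sph exceeded WT by 4.18-fold and 23.4-fold. For Fcgr3 the corresponding folds were 4.28 and 12.4, and 1.78 and 5.88; for Fcgr1 they were 2.63 and 18.1, and 2.66 and 13.

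**Figure D2:**
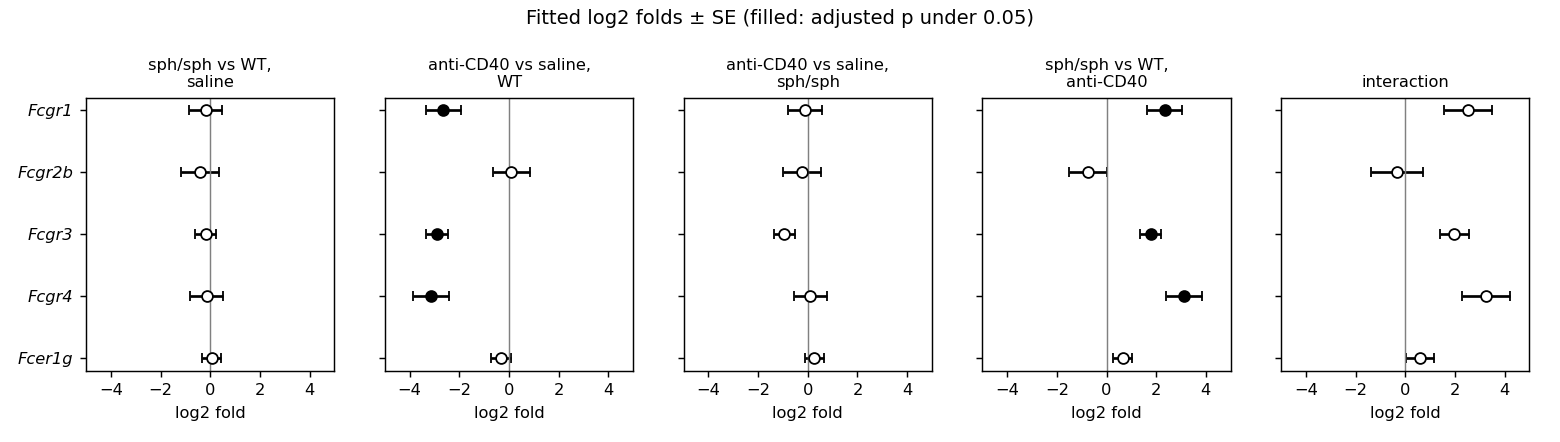
Fitted log2 folds with SE (bars) of the 5 genes in the 5 comparisons; filled points passed an edgeR adjusted p of 0.05. Only Fcgr1, Fcgr3 and Fcgr4 are filled, below 0 for anti-CD40 in WT and above 0 for sph/sph over WT under anti-CD40.

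Fcgr2b, the inhibitory receptor, was not called in any comparison. Its libraries spread 3.28-fold from lowest to highest in WT saline, 6.77-fold in sph/sph saline, 1.83-fold in WT anti-CD40 and 4.73-fold in sph/sph anti-CD40. It read 152.2, 498.7 and 363.4 CPM in WT saline, 331.0, 372.8 and 55.04 in sph/sph saline, 264.9, 334.3 and 484.5 in WT anti-CD40, and 92.37, 114.1 and 436.7 CPM in sph/sph anti-CD40. The log2 fold was 0.10 ± 0.75 for anti-CD40 in WT (edgeR adjusted p = 0.932), −0.24 ± 0.75 for anti-CD40 in sph/sph (0.884) and −0.75 ± 0.76 for sph/sph over WT under anti-CD40 (0.541). All 4 groups overlapped with their neighbours in the order WT anti-CD40 (361.2), WT saline (338.1), sph/sph saline (253.0) and sph/sph anti-CD40 (214.4 CPM). Within the A libraries and within B and C its differences went in opposite directions for 3 of the 4 pairwise comparisons. For anti-CD40 in sph/sph, for example, it was 3.58-fold lower in A and 1.29-fold higher in B and C.

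Fcgr2b was low where endothelial genes were low. The summed level of 12 sinusoidal endothelial genes was 1950, 4680 and 3570 CPM in WT saline libraries A, B and C, 2490, 2910 and 1040 in sph/sph saline, 3610, 4610 and 8360 in WT anti-CD40, and 907, 1430 and 3050 CPM in sph/sph anti-CD40. The 4 libraries lowest in Fcgr2b (sph/sph saline C, sph/sph anti-CD40 A and B, WT saline A) were also the 4 lowest in this sum. The match was not particular to endothelial genes. These 4 libraries were also lowest in the sum of 10 mast cell and basophil genes (6.52, 16.3, 22.0 and 21.4 CPM in that order). None of the 12 endothelial genes was at 0 counts in any group. They did not move together: under anti-CD40 in WT, Lyve1 was at 494 CPM against 44.5 under saline, while Stab2 went from 658 to 175 CPM and Clec4g from 379 to 91.8 CPM, and 2 of 12 rose (Lyve1 and Dnase1l3) and none fell. B cell genes also differed: 12 of them summed to 4180 CPM in sph/sph anti-CD40 library C, where Fcgr2b was 436.7 CPM. They summed to 368 and 133 CPM in libraries A and B, where it was 92.37 and 114.1 CPM. Fcgr2b did not follow this sum elsewhere: WT saline library B had the highest Fcgr2b level, 498.7 CPM, and the lowest B cell sum, 118 CPM. The part of any of these cell types in the level of Fcgr2b was not tested. Reads of Fcgr2b and Fcgr3 can also be confused: 4.38% of the 50-base windows of Fcgr2b exons and 9.58% of those of Fcgr3 are shared with another gene. Between the 2 genes 166 windows are shared, of 249 shared windows of Fcgr2b. Fcgr2b also overlaps the antisense gene Gm38204 by 155 exon bases. Neither the handling of multi-mapped reads nor the strand setting is given, so these small parts of their counts are uncertain.

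**Figure D3:**
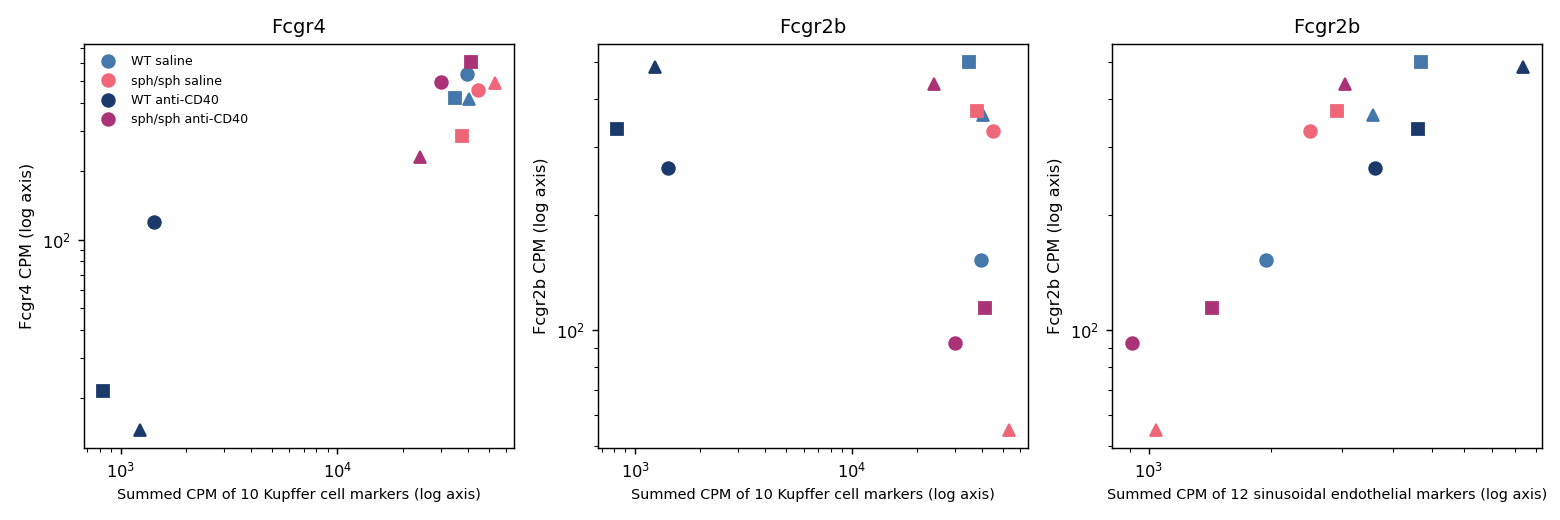
Level of Fcgr4 and Fcgr2b in each library (CPM) against the summed CPM of Kupffer cell and sinusoidal endothelial markers, all axes log; colours are groups, and circles, squares and triangles are libraries A, B and C. Fcgr4 and the Kupffer sum are both lowest in the 3 WT anti-CD40 libraries, while Fcgr2b does not follow the Kupffer sum and is low where the endothelial sum is low.

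Fcer1g, the signalling chain, kept a high level in every group and was not called in any comparison. It read 728.2, 616.7 and 681.2 CPM in WT saline, 755.9, 491.9 and 855.9 in sph/sph saline, 751.4, 495.5 and 370.9 in WT anti-CD40, and 1170, 956.7 and 401.2 CPM in sph/sph anti-CD40. All neighbouring groups overlapped. The log2 fold was −0.32 ± 0.39 for anti-CD40 in WT (edgeR adjusted p = 0.526), 0.26 ± 0.39 for anti-CD40 in sph/sph (0.733) and 0.64 ± 0.39 for sph/sph over WT under anti-CD40 (0.293). Without sph/sph anti-CD40 library C, which was well below A and B, the last was called (log2 0.99, edgeR adjusted p = 0.043). Other cells that use the gamma chain were also present: 15 NK and T cell genes summed to 305, 2610 and 998 CPM in WT anti-CD40, 3.18 to 116 CPM in sph/sph anti-CD40 and 3.52 to 5.43 CPM in WT saline, and 12 neutrophil genes to 211 to 654, 200 to 360 and 155 to 199 CPM. Their part in the level of Fcer1g was not tested.

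The balance of activating and inhibitory receptor transcripts was compared within each library, where it does not depend on library scaling. Of the length-scaled reads of the 4 Fcgr genes, Fcgr2b made up 2.76%, 10.11% and 6.65% in WT saline libraries A, B and C, and 6.89%, 10.41% and 0.99% in sph/sph saline. It made up 16.96%, 48.12% and 67.20% in WT anti-CD40 but 2.37%, 2.61% and 14.58% in sph/sph anti-CD40. All 3 WT anti-CD40 shares were above those of every other library, though A was close to sph/sph anti-CD40 C. The summed activating receptors exceeded Fcgr2b 35.2-, 8.89- and 14.0-fold in WT saline, and 4.9-, 1.08- and 0.488-fold in WT anti-CD40, so that in library C Fcgr2b was the more abundant. The mean log2 ratio of this group was 0.46 with the length of all exons, −0.04 with that of the principal transcript and −0.46 without library A, so which was more abundant on average turned with these choices. In sph/sph anti-CD40 the ratios were 41.1, 37.3 and 5.86. No test was made of these shares. Without length scaling the mean share of Fcgr2b was 19.35% in place of 6.51% in WT saline and 18.48% in place of 6.52% in sph/sph anti-CD40, and 68.41% in place of 44.09% in WT anti-CD40, since its exons are the longest.

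The gamma chain and its receptors also parted. Under saline, Fcer1g and the sum of the 3 activating receptors stood near equality per length, at 0.885 to 1.12 Fcer1g per activating receptor transcript over the 6 libraries. In WT anti-CD40 the ratio was 3.84, 9.11 and 10.4, above every other library. In sph/sph anti-CD40 it was 2.04, 1.49 and 1.04. Among the activating receptors, the log2 ratio of Fcgr1 to Fcgr4 lay between −2.41 and −1.38 over all 12 libraries; it was −1.67 to −1.38 in WT anti-CD40 and −2.41 to −2.15 in sph/sph anti-CD40, without overlap. The log2 ratio of Fcgr3 to Fcgr4 covered a wider range and overlapped, at 0.01, 1.19 and 1.16 in WT anti-CD40 and −1.22, −1.57 and 0.23 in sph/sph anti-CD40. In sph/sph anti-CD40 libraries A and B, Fcgr4 alone held 58.96% and 63.85% of the Fcgr reads.

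**Figure D4:**
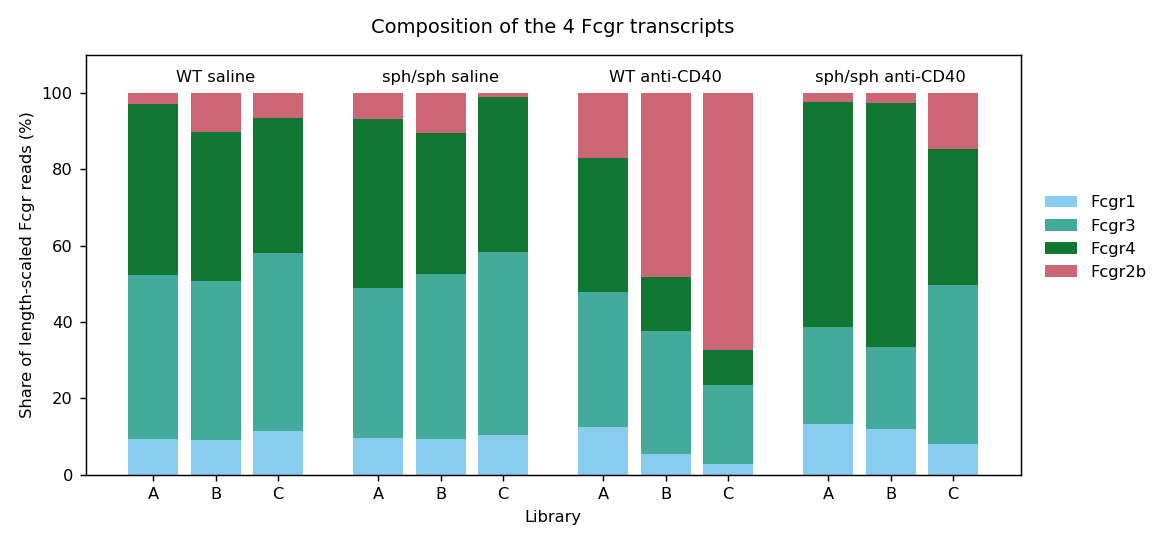
Share of each receptor in the length-scaled reads of the 4 Fcgr genes (%), 1 bar per library. Fcgr2b takes 16.96% to 67.20% in the 3 WT anti-CD40 libraries and at most 14.58% in the other 9.

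Likeness of profiles was measured as Pearson's r of log2 CPM over the 12 libraries. The libraries share their groups, and the 3 WT anti-CD40 libraries lie below all others for the activating receptors, so r is a description only and no p is given. Fcgr1 and Fcgr4 were each other's nearest gene of all tested (r = 0.99), and Fcgr3 was close to both (0.93 and 0.92). Fcer1g was less like them (0.69 with Fcgr1, 0.67 with Fcgr4, 0.44 with Fcgr3), and Fcgr2b ran against all 4, from −0.29 with Fcgr3 to −0.78 with Fcer1g. Beside each other, Fcgr1 and Fcgr4 were nearest to Slc11a1 (0.98 and 0.99), the phagosomal metal transporter, and Adam33 and Gm15922. Fcgr3 was nearest to Tmem141, Smpdl3a, Hacd4, Cd300c2 and Hexa (0.98 to 0.99), of which Hexa encodes a lysosomal hexosaminidase. Fcgr2b was nearest to Plxnc1, Mlph, Dpp4, Dock6 and Pam (0.955 to 0.968). Fcer1g was nearest to Tmem219, Cox5a, Rnf7, Gmppa and Ik (0.948 to 0.97), genes with similar means in all groups, such as Cox5a, a subunit of cytochrome oxidase, at 184 and 159 CPM in WT without and with anti-CD40, and 218 and 233 CPM in sph/sph.

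Among 14 other Fc receptor genes, 10 were tested. Under anti-CD40 in WT, 3 rose and 1 fell, near the 39.2% of all tested genes called (19.4% higher and 19.7% lower). The list median log2 fold was 2.78, against 0.05 for all tested genes. The gene that fell was Fcgrt, the neonatal Fc receptor that recycles IgG and albumin, from 579 to 116 CPM (log2 −2.32 ± 0.46, edgeR adjusted p = 0.00352), a call made in all 20 alternative fits. Fcgrt was at 308 CPM in sph/sph anti-CD40 (against WT, adjusted p = 0.0548). The 3 that rose were Fcer2a, the low-affinity IgE receptor of B cells, Fcrl5 and Fcrlb, of which Fcrl5 stayed at 2.10 CPM and Fcrlb at 3.71 CPM; the rise of Fcer2a was lost without any single WT saline library, and over the fits with a library left out 1 to 6 of the list rose. Fcer1a, the IgE-binding chain that pairs with Fcer1g on mast cells and basophils, was too low to be tested (18 counts over the WT anti-CD40 group). Of 12 tested immunoglobulin chain genes, 6 rose in WT under anti-CD40, against 19.4% of all tested genes, and none was called in the other 4 comparisons. With a library left out, 2 to 10 rose. Ighg2b, an IgG heavy chain, went from 0.833 to 10.3 CPM (edgeR adjusted p = 0.0087) while the summed B cell genes went from 118 to 153 CPM to 150 to 698 CPM.

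Receptors listed as partners of the gamma chain split by receptor. Of 10 tested, 5 rose and 4 fell under anti-CD40 in WT, against 19.4% and 19.7% of all tested genes. Under anti-CD40, 5 were higher and 2 lower in sph/sph than in WT, against 11.5% and 6.19% of all tested genes. Those that fell were Lilra5, from 517 to 6.58 CPM (log2 −6.29 ± 0.35, edgeR adjusted p = 2.65e-06), Cd300ld (log2 −4.61 ± 0.32, adjusted p = 1.04e-05), Cd300c2 and Pira2, all activating immunoglobulin-type receptors of myeloid cells. The same 4 were higher in sph/sph than in WT under anti-CD40, Lilra5 at 152 CPM (log2 4.53 ± 0.32, edgeR adjusted p = 3.3e-05). Those that rose in WT included Clec4e (Mincle) and Clec4d, C-type lectins for microbial glycolipids, at 613 and 78.1 CPM from 1.99 and 2.83 CPM (edgeR adjusted p = 0.0019 for each), and Ncr1, an NK cell receptor, at 72.1 from 0.116 CPM. The call of Clec4e, and that of Ncr1 in WT, was lost with limma-voom (adjusted p = 0.0679 and 0.0718). Clec4n (Dectin-2), another lectin, differed by genotype and was not called for treatment. Its saline level was 195 CPM in WT against 1030 CPM in sph/sph (log2 2.40 ± 0.39, edgeR adjusted p = 0.0127, lost without WT saline library A or B) and its anti-CD40 level 173 against 829 CPM (log2 2.27 ± 0.39, adjusted p = 0.00343). Tyrobp (DAP12), the sister adaptor of Fcer1g, fell in WT from 1180 to 459 CPM (log2 −1.36 ± 0.30, edgeR adjusted p = 0.00561).

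Of 33 kinases and adaptors, 7 rose and 5 fell under anti-CD40 in WT (median 0.11, all tested genes 0.05), near the background of 39.2% of all tested genes called. Under anti-CD40, 5 exceeded the WT level in sph/sph and 2 were below it (11.5% and 6.19% of all tested genes). In sph/sph, 2 rose after anti-CD40 (0.578% of all tested genes). Without sph/sph anti-CD40 library C these counts were 10 and 6, 6 and 7, and 5 with 2 lower. Malt1 and Lat2, adaptors for NF-κB and calcium signals, rose 3.38 ± 0.42 and 4.26 ± 0.52 on the log2 scale in WT (edgeR adjusted p = 0.000261 and 0.000249). Syk, Lyn, Inpp5d, Spi1 and Irf1 are given for their known roles and were picked after their values were seen. Lyn, a kinase that phosphorylates ITAMs and ITIMs, fell from 685 to 269 CPM in WT (log2 −1.35 ± 0.25, edgeR adjusted p = 0.00236), and Btk, which acts with it on phospholipase C, from 98.9 to 42.0 CPM (log2 −1.24 ± 0.28, adjusted p = 0.00604). Both were higher in sph/sph than WT under anti-CD40 (adjusted p = 0.0133 and 0.00663), but the call of Lyn was lost without WT anti-CD40 library B or C, and both were lost with only the compared groups in the fit. Syk, the kinase that binds phosphorylated ITAMs, was at 494 and 509 CPM in WT without and with anti-CD40, at 459 and 618 CPM in sph/sph, and was not called (log2 0.04 ± 0.29 in WT, edgeR adjusted p = 0.924).

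Of 27 tested genes of the phagocytic cup and the oxidase, 6 fell and 2 rose in WT under anti-CD40 (median 0.02). Of all tested genes 19.7% fell and 19.4% rose. Under anti-CD40, 3 of the 27 were higher in sph/sph than WT, against 11.5% of all tested genes. Pld1, a phospholipase of phagocytosis, fell from 101 to 15.5 CPM (log2 −2.70 ± 0.24, edgeR adjusted p = 4.39e-05), Bin2 fell by 1.38 ± 0.25 on the log2 scale (adjusted p = 0.00219) and Myo1e, a myosin of the phagocytic cup, rose by 3.01 ± 0.40 (adjusted p = 0.000404). Of 15 phosphatases and other brakes, 5 fell and 2 rose in WT (median −0.01), and 3 were higher in sph/sph than WT under anti-CD40, with the same backgrounds. Inpp5d, the phosphatase that Fcgr2b recruits, fell from 278 to 163 CPM (log2 −0.77 ± 0.16, edgeR adjusted p = 0.0036) and was at 268 CPM in sph/sph anti-CD40 (against WT, log2 0.72 ± 0.16, adjusted p = 0.011, or 0.148 with only the compared groups). Dok3, an adaptor that restrains ITAM signals, fell by 1.68 ± 0.25 on the log2 scale in WT (edgeR adjusted p = 0.000742) and was 1.41 ± 0.25 higher in sph/sph than WT under anti-CD40 (adjusted p = 0.00431).

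Fcgr2b is 1 of many ITIM-bearing receptors, which were listed together. Of 21 tested, 10 fell and 2 rose in WT under anti-CD40, against 19.7% and 19.4% of all tested genes. The list median log2 fold was −1.19 (all tested genes 0.05). Under anti-CD40, 9 were higher and 1 lower in sph/sph than WT, against 11.5% and 6.19% of all tested genes. The median there was 1.10 (all tested genes 0.08). Siglece, a sialic acid receptor, went from 397 to 23.1 CPM in WT (log2 −4.11 ± 0.45, edgeR adjusted p = 0.000135) and stood at 393 CPM in sph/sph anti-CD40 (against WT, log2 4.09 ± 0.45, adjusted p = 0.000317). Cd300a, a receptor for exposed phospholipids, went from 453 to 58.3 CPM in WT (log2 −2.96 ± 0.34, edgeR adjusted p = 0.000169) and stood at 304 CPM in sph/sph anti-CD40 (adjusted p = 0.00118). Clec4a1 and Clec4a2 were higher in sph/sph than WT by log2 2.52 ± 0.37 and 2.36 ± 0.42 (edgeR adjusted p = 0.00154 and 0.0044). The 2 that rose in WT, Klrg1 and Tigit, are receptors of NK and T cells; Klrg1 had 0 counts in WT saline and 10.8 CPM in WT anti-CD40, where NK and T cell genes summed to 305 to 2610 CPM. Over the fits with a library left out, 8 to 11 fell in WT and 6 to 11 were higher in sph/sph.

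**Figure D5:**
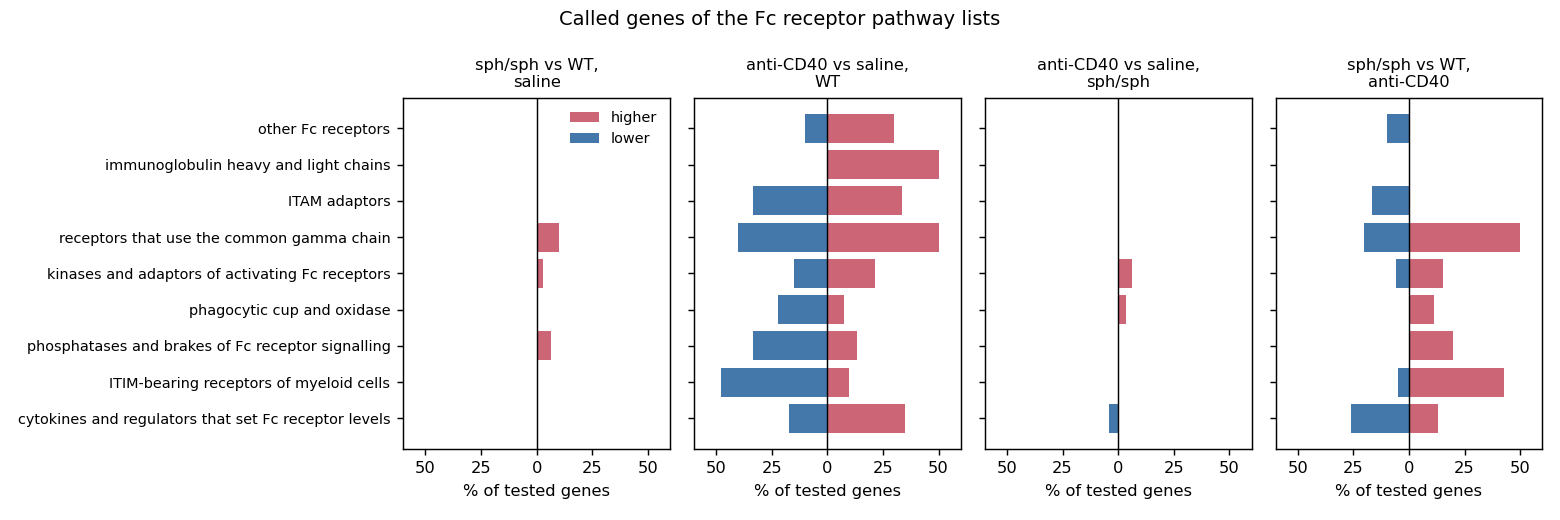
Share of the tested genes of each Fc receptor pathway list that were called higher (right) or lower (left) by edgeR in 4 comparisons (%). The ITIM-bearing receptors lean lower for anti-CD40 in WT (10 of 21, against 19.7% of all tested genes). They lean higher for sph/sph over WT under anti-CD40 (9 of 21, against 11.5%).

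Of 23 tested cytokines, cytokine receptors and transcription factors, 8 rose and 4 fell under anti-CD40 in WT (median 0.21). Of all tested genes 39.2% were called, 19.4% higher and 19.7% lower. Under anti-CD40, 3 were higher and 6 lower in sph/sph than WT (median −0.12), against 11.5% and 6.19% of all tested genes. Ifng, the interferon that raises Fcgr1 and Fcgr4 in macrophages, rose from 0.0612 to 23.2 CPM in WT (edgeR adjusted p = 0.000298) and was 0.608 CPM in sph/sph anti-CD40 (against WT, log2 −5.24 ± 0.86, adjusted p = 0.00277). Irf1, a transcription factor that acts below it, also rose in WT (log2 1.87 ± 0.45, edgeR adjusted p = 0.00912). Ifngr1, a chain of its receptor, fell from 686 to 134 CPM (log2 −2.36 ± 0.20, edgeR adjusted p = 3.36e-05). So in enriched cells from WT mice after anti-CD40 the interferon transcript was higher while those of its receptor chain, Fcgr1 and Fcgr4 were lower. Which cells held each transcript was not measured. Cebpa, a factor of macrophage genes, fell from 216 to 29.0 CPM (log2 −2.89 ± 0.25, edgeR adjusted p = 3.78e-05). Spi1, which encodes PU.1, went from 393 to 227 CPM and was not called (log2 −0.79 ± 0.38, adjusted p = 0.121). Kupffer cell and NK and T cell genes also differed between these groups, as given above, and their part in each was not tested.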

How the data were processed

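RNA sequencing of 12 libraries was analysed from the read counts per gene that the authors deposited, 1 column per library, with no column of any other sample. The tools named per the submitters' processing notes are featureCounts, SAMtools 1.9 and STAR 2.7.0e, and the build is GRCm38.p5. Not given in the sources used here: the annotation, the strand setting and how multi-mapped reads were handled. Counts were analysed with edgeR 4.0.16 in R 4.3.3: filterByExpr, TMM scaling, a robust quasi-likelihood fit of the 4 groups (common biological coefficient of variation 0.382) and Benjamini-Hochberg adjustment over 13844 genes, called under 0.05. It was tested on simulated data. Alternatives were RLE and upper-quartile scaling, no filter, no robust estimation, a sex term, a block on the shared number, only the compared groups, each library left out, DESeq2 1.42.0 and limma-voom (limma 3.58.1). Exon lengths, positions and overlaps came from GENCODE M21, and upstream sequences from RefSeq. Of 25700 identifiers 25587 matched a symbol.

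The genes and lists were chosen with earlier results of these data known. Named genes were the 5 members, up to 5 called genes per pathway list and comparison with the largest absolute log2 fold, the first genes of each marker list, the 5 most correlated genes per member (log2 CPM, prior count 2) and the nearest tested neighbours; genes named beyond these were chosen after their values were seen. The gamma-chain list also held Klra8 and Oscar, which were not tested, and Klra8 is known to pair with Tyrobp.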

Additional observations from a re-analysis of the deposited data

Results flagged for a closer look

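The difference between the genotypes' responses to anti-CD40 (sph/sph minus WT, log2) passed the edgeR test of that difference for 13 genes of the pathway lists, though for none of the 5 Fc receptor genes. They were 4 of 10 tested genes listed as partners of the gamma chain, 3 of 21 ITIM-bearing receptors, 1 of 27 phagocytic cup genes and 5 of 23 regulators, with none on the other lists, against 4.3% of all tested genes. Among genes listed as partners of the gamma chain these were Lilra5 at 5.03 (adjusted p = 0.00017), Cd300ld at 3.80 (0.000812), Cd300c2 at 2.33 (0.0305) and Il3ra, a chain of the interleukin-3 receptor, at −1.76 (0.019). The first 3 fell in WT (log2 −6.29, −4.61 and −3.19), and had log2 values of −1.26, −0.81 and −0.86 in sph/sph, which were not called.

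Among ITIM-bearing receptors the differences were 4.22 for Siglece (edgeR adjusted p = 0.00347), 3.44 for Cd72 (0.0125) and 2.41 for Cd300a (0.0163), with sph/sph responses of 0.11, −0.10 and −0.54. Pld1 gave 2.20 (0.00541). Among regulators they were 1.55 for Ifngr1 (edgeR adjusted p = 0.012), 1.54 for Cebpa (0.0305), −1.56 for Hif1a (0.0316), −1.41 for Irf8 (0.034) and −1.41 for Il4ra (0.0296).

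Lilra5, Cd300ld, Pld1, Siglece, Cd72 and Ifngr1 were called in all 20 alternative fits of the interaction. Cd300a was lost without sph/sph saline library A (adjusted p = 0.0522). The other 6 were each lost in 5 to 9 of the fits that leave out a library, with adjusted p up to 0.0997, and Cebpa and Hif1a also with the number shared by the A libraries as a block. Summed Kupffer cell genes differed between the genotypes' responses in the same libraries, as given above, and their part in these differences was not tested.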

How the results depend on the processing

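No value reversed its direction past a threshold: 485 of 510 member values kept their side of the test, 17 lost it and 8 gained it. No member was called for sph/sph against WT under saline, or for anti-CD40 in sph/sph, in any alternative fit. Of the 3 members called for sph/sph over WT under anti-CD40, 0 were called with only the compared groups in the fit (adjusted p = 0.105 for Fcgr3, 0.109 for Fcgr4 and 0.185 for Fcgr1; Fcgr1 was also lost without a filter on low counts, at 0.0606), and 0 to 4 with a library left out. The 3 called for anti-CD40 in WT became 2 to 3 with a library left out. The interaction called 0 members in the main fit, 1 with a term for sex (Fcgr4), 1 with the number that A libraries share as a block (Fcgr4, a fit added after the data were seen, which changed no other call of a member), 2 with DESeq2 (Fcgr3 and Fcgr4) and 0 to 3 with a library left out; the causes were not tested. Read counts without length scaling gave Fcgr2b mean shares of 19.35%, 17.95% and 18.48% in WT saline, sph/sph saline and sph/sph anti-CD40 and of 68.41% in WT anti-CD40, and mean log2 ratios of activating receptors to Fcgr2b of 2.20 in WT saline, −1.33 in WT anti-CD40 and 2.49 in sph/sph anti-CD40 in place of 4.03, 0.46 and 4.38, by construction. With a library left out, the mean share of Fcgr2b ranged from 4.71% to 8.38% in WT saline, 3.94% to 8.65% in sph/sph saline, 32.54% to 57.66% in WT anti-CD40 and 2.49% to 8.59% in sph/sph anti-CD40. No paired analysis was possible because the columns do not carry the labels' replicate numbers, and of the numbers in the column names only that of the A libraries, used in the block above, is shared between genotypes. Precision is limited by 3 libraries a group and the spread within groups. The lowest count of a member in any library was 190, for Fcgr1.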

Other observations

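Genes beside the receptors on the chromosome were measured too. Apoa2, an apolipoprotein gene of hepatocytes that lies 3193 bases from Fcer1g, was not called for anti-CD40 in WT (log2 −1.91 ± 0.73, edgeR adjusted p = 0.0598). Cfap126, 48983 bases from Fcgr3, fell in WT under anti-CD40 (log2 −1.82 ± 0.39, edgeR adjusted p = 0.00509) and was higher in sph/sph than in WT under anti-CD40 (log2 1.83 ± 0.39, adjusted p = 0.0106), as Fcgr3 was. Fcrla, 31034 bases from Fcgr2b, was not called in WT (log2 2.56 ± 1.58, edgeR adjusted p = 0.219). Fcgr4 lies between Fcgr2b, 42373 bases away, and Fcgr3, 21413 bases away.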
